A study of Mus musculus with 6 samples.

Results

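The genes examined here were 9 genes that write, remove or read DNA methylation, taken from the 55471 genes counted in a hippocampus RNA-seq experiment. They were the DNA methyltransferases Dnmt1, Dnmt3a and Dnmt3b, the TET dioxygenases Tet1, Tet2 and Tet3, the methyl-CpG reader Mbd2, and the Gadd45 genes Gadd45b and Gadd45g. They were chosen by name from the pathway, with earlier results of these data known. All 9 had counts in every library and entered the test across genes.

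DNA methyltransferases add a methyl group to cytosine, mostly where a guanine follows it (a CpG). Dnmt1 copies the mark onto the new strand after replication, and Dnmt3a and Dnmt3b place it at new sites. The TET enzymes oxidize methylated cytosine, which leads to its replacement by an unmodified base through base excision repair. Mbd2 binds methylated CpG and brings the NuRD chromatin remodelling complex with it. Gadd45 proteins, small stress-inducible proteins, have been tied to active demethylation, and Gadd45b and Gadd45g are induced by neuronal activity. In the brain, Dnmt3a and the oxidized forms of methylated cytosine are prominent in neurons.

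The 6 libraries came from 1 mouse each: 3 p300-ifKO mice and 3 controls, all C57BL/6, 3 to 6 months old. The p300-ifKO mice carry floxed Ep300, the gene for the lysine acetyltransferase p300, and the tamoxifen-inducible recombinase creERT2 under the Camk2a promoter, so that recombination is limited to excitatory forebrain neurons of the adult and all other cells of the hippocampus keep the gene. Tamoxifen was given in 5 administrations (20 mg/ml in corn oil). By the protocol, controls are littermates that lack creERT2 and were given tamoxifen as well, but the Camk2a_creERT2 driver is named in the description of every control library. The authors report Arsi and Esr1 as the only genes that differed between these groups. They describe both as upregulated in p300-ifKO mice and as related to the driver transgene. In bulk tissue, a lower level of a gene per cell and a smaller number of the cells that express it cannot be told apart. The question put to the 9 genes was whether loss of p300 in these neurons changed their transcripts.

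Libraries held 23151568 to 28433823 counts. The targeted gene Ep300 was lower in each p300-ifKO library (478, 1350 and 912 normalized counts) than in each control library (1545, 1474 and 2334), where a normalized count is the count divided by the size factor that DESeq2 gives the library. Its log2 fold change was −0.97 (SE 0.33), with an adjusted p of 0.991 in DESeq2 that did not pass 0.05 (0.00369 before adjustment). Markers of excitatory neurons (9 genes), interneurons (8), astrocytes (8), oligodendrocytes (8), their precursors (5), microglia (8), endothelium (7), choroid plexus (6), dividing cells and neuroblasts (6) and blood (4) were present in every library, with none at 0. Summed marker levels of excitatory neurons overlapped between control (7199 to 7877 CPM, counts scaled to a common library total) and p300-ifKO (7328 to 8066). Those of astrocytes did not overlap, at 5279 to 5354 CPM in control and 4902 to 5068 in p300-ifKO mice, nor did those of oligodendrocyte precursors, at 207 to 217 and 195 to 200. By gene, astrocyte markers were 3 higher and 5 lower (5 higher and 3 lower with an offset for gene length), and precursor markers 2 higher and 3 lower (1 and 4). Of single genes with a mean of at least 10 normalized counts, 7.46% had groups that did not overlap. Microglia markers summed to at most 394 CPM in control and at most 485 in p300-ifKO mice, and these ranges overlapped. The part of these cell types in the values of the 9 genes was not tested. DESeq2 called none of the 69 marker genes, 5 of which had an unadjusted p under 0.05 (7.25%, against 1.32% of all genes). Without p300-ifKO replicate 2 it called 6 of them (8.7%, against 2.89% of all genes). The shares over all genes include many genes with few counts. Of the 17070 genes with a mean of at least 10 normalized counts, 383 had an unadjusted p under 0.05 in all 6 libraries. All 926 genes called without p300-ifKO replicate 2 were among those 17070.

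The promoters of the Gadd45 pair are shown because they carry 2 motifs in common that few of the other promoters had, and that of Tet3 is shown beside them as an example from the enzymes. Each is the 250 bases before a RefSeq transcription start on GRCm38.p6, 5′ to 3′ on the strand of the gene. Capitals mark the E-box, with the letters CACGTG, the TATA box, with the letters TATAAA, the CCAAT box, with those letters, and the GC box, with the letters GGGCGG. They were searched on both strands, so a motif on the other strand is printed as its reverse complement. Gadd45b is at chr10:80929841-80930090 (plus strand), Gadd45g at chr13:51846425-51846674 (plus strand) and Tet3 at chr6:83441679-83441928 (minus strand).
Gadd45b: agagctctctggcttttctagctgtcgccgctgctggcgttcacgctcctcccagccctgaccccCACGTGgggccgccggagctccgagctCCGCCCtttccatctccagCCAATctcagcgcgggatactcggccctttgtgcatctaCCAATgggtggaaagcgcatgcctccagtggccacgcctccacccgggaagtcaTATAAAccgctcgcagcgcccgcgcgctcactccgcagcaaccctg
Gadd45g: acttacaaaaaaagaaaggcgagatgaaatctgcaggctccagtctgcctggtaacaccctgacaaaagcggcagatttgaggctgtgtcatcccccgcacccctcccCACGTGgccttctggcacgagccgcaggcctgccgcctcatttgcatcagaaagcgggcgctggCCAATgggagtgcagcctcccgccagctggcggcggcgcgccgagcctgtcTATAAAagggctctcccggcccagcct
Tet3: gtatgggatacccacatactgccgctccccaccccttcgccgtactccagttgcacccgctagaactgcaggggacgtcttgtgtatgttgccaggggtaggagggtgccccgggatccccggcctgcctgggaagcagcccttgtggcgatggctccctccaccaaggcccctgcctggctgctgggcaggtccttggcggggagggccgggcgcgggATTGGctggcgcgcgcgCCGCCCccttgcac

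Both Gadd45 promoters held an E-box and a TATA box. In Gadd45b the E-box began 185 bases and the TATA box 46 bases before the start, and in Gadd45g 142 and 27 bases before it. Across 32841 promoters of the same length, 6.02% held the E-box and 12.4% the TATA box. Among the 12 promoter windows of the 8 genes found in the table (some have several starts, and Mbd2 was not found), TATAAA was in those of the Gadd45 pair only, and CACGTG also in 1 window of Dnmt3a. The Tet3 window, which lies inside the annotated Tet3 gene and overlaps an exon of the antisense transcript B230319C09Rik, had neither, with a CCAAT box 31 and a GC box 14 bases before the start. The cyclic AMP response element TGACGTCA, the binding sequence of CREB, which recruits p300, was in 0 of the 12 windows and in 1.55% of all promoters, and its shorter form TGACG in 0 of 12 and 17.8%. These are matches of letters within 250 bases and say nothing of binding. CpG numbered 22 in the Gadd45b, 16 in the Gadd45g and 17 in the Tet3 window, against a median of 6 in all promoters.

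The levels of the genes were first ordered within control mice, on a scale per exonic length (TPM, in which the genes of each library sum to the same total). That length joins all annotated exons of a gene and can exceed that of any 1 transcript, so the order depends on it. Mbd2 was highest, with 43.4, 41.9 and 46.5 TPM (mean 44.0 ± 2.38, SD, n = 3), followed by Gadd45g at 39.0 ± 6.40 TPM, Dnmt1 at 28.95 ± 1.495, Gadd45b at 28.8 ± 4.94 and Dnmt3a at 22.04 ± 3.51. Of the oxidizing enzymes, Tet3 stood at 12.9 ± 2.25 TPM, Tet2 at 9.62 ± 1.81 and Tet1 at 2.31 ± 0.708. Dnmt3b was lowest, with 0.836, 0.674 and 1.005 TPM. The methyl-CpG reader, the Gadd45 pair and Dnmt1 thus lay within a narrow range, and the main de novo enzyme was higher than its paralogue Dnmt3b.

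Several neighbours in that order did not differ beyond their spread. Control ranges overlapped for Mbd2 and Gadd45g, for Dnmt1 and Gadd45b, for Gadd45b and Dnmt3a and for Tet3 and Tet2. Gadd45b was nevertheless above Dnmt3a, and Tet3 above Tet2, in 6 of 6 libraries. Ranges did not overlap for Gadd45g above Dnmt1, Dnmt3a above Tet3, Tet2 above Tet1 (4.17-fold between means) and Tet1 above Dnmt3b (2.75-fold). In p300-ifKO mice the means were 42.2 ± 0.339 TPM for Mbd2, 40.2 ± 7.52 for Gadd45g, 32.1 ± 0.129 for Gadd45b, 26.3 ± 6.67 for Dnmt1 and 17.9 ± 6.46 for Dnmt3a (SD, n = 3). Tet3 had 10.9 ± 4.93 TPM, Tet2 7.45 ± 2.70, Tet1 2.03 ± 0.867 and Dnmt3b 0.793 ± 0.0845 there.

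**Figure D1:**
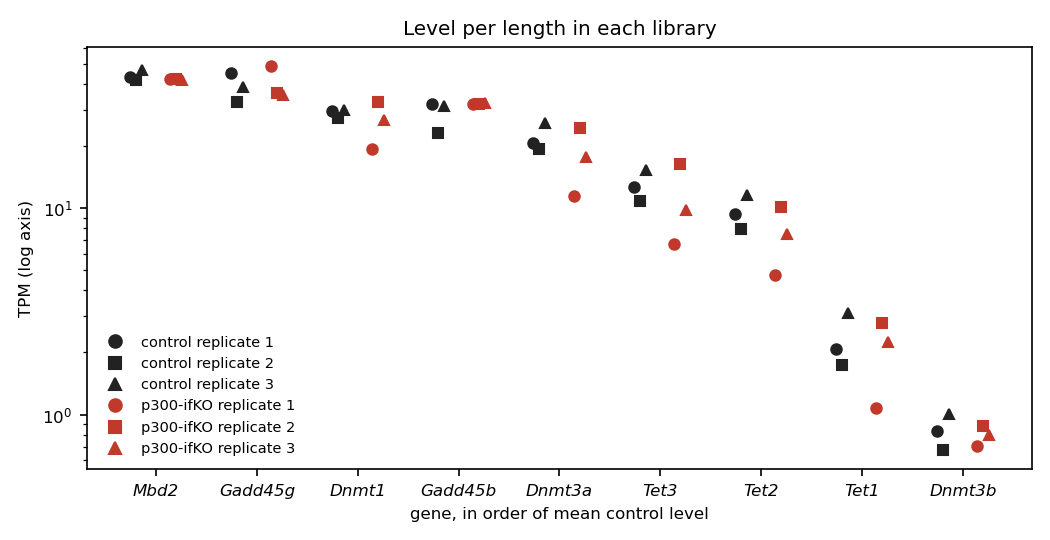
Level of each gene in TPM on a log axis, with the genes in order of their mean in control mice; each point is 1 library, black for control and red for p300-ifKO. Mbd2 is at the left near 44.0 TPM, Dnmt3b at the right under 1.1 TPM, and the red points of p300-ifKO replicate 1 (circles) are the lowest of Dnmt1, Dnmt3a and the 3 TET genes.

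None of the 9 genes passed the test between p300-ifKO and control mice, and the 2 groups of normalized counts overlapped for each. In DESeq2, 0 of 9 had an adjusted p under 0.05 (Benjamini-Hochberg over 32773 genes, 2 of which passed, or 0.0061%), and 0 of 9 an unadjusted p under 0.05 (1.32% of all genes). The 2 genes that passed were higher in p300-ifKO mice. The edgeR quasi-likelihood test called 0 of 9 as well (2 genes of 17131, or 0.0117%), with 0 of 9 at an unadjusted p under 0.05 (2.3% of all genes), and limma-voom gave 0 and 0 (0.0117% and 2.15% of all genes). Separated groups were seen in 6.64% of all genes tested, and in 7.46% of those with a mean of at least 10 normalized counts. The log2 fold change was below 0 for 7 genes and above 0 for Gadd45b and Gadd45g, with a median of −0.097. The median was −0.046 over all genes tested and −0.0051 over the 17070 with a mean of at least 10 normalized counts. Directions depended on the scaling: Mbd2 turned with TMM factors (0.012), and Dnmt1, Dnmt3b, Tet1 and Gadd45g turned with an offset for gene length, described further on. Below, values run over replicates 1, 2 and 3 of each group, and adjusted p-values are those of DESeq2.

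The writers came closest to equal in Dnmt1 and Dnmt3b. Dnmt1, the maintenance enzyme, had 1421, 1350 and 1412 normalized counts in control libraries against 1062, 1523 and 1324 in p300-ifKO libraries. The control mice lay close together (1394 ± 38.7, SD, n = 3), and the p300-ifKO mice on both sides of them (1303 ± 231, SD, n = 3). On the log2 scale the change was −0.097 (SE 0.16, adjusted p 0.991), with a 95% interval from −0.42 to 0.22. Dnmt3a, the main de novo enzyme of the adult brain, had 2255, 2161 and 2754 in control libraries against 1421, 2566 and 1963 in p300-ifKO libraries. Replicates 1 and 3 of p300-ifKO were below all controls, and replicate 2 was above 2 of them. The means of 2390 ± 319 and 1983 ± 573 (SD, n = 3) differed by −0.27 on the log2 scale (SE 0.22, adjusted p 0.991), with an interval from −0.71 to 0.17. Dnmt3b had 27.8, 23.1 and 32.7 normalized counts in control libraries against 26.8, 28.3 and 27.0 in p300-ifKO libraries, and the p300-ifKO values all lay inside the control range. Its 22 to 32 reads per library limited the precision: the log2 fold change of −0.026 (SE 0.38, adjusted p 0.997) had an interval from −0.76 to 0.71. In addition, 9.80% of its exonic stretches of 50 bases, the read length, also occur in Dnmt3c, so the part of its count from these stretches is uncertain.

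The 3 TET genes showed the same order of libraries at their low end: p300-ifKO replicate 1 was the lowest of 6 in each. Tet1 had 210, 181 and 305 normalized counts in control libraries against 124, 270 and 231 in p300-ifKO libraries. The control values alone spanned most of that range, and the log2 fold change of −0.15 (SE 0.32, adjusted p 0.991) had an interval from −0.77 to 0.47. Tet2 had 1035, 897 and 1238 in control libraries against 594, 1080 and 843 in p300-ifKO libraries. Replicates 1 and 3 of p300-ifKO lay below all controls, as in Dnmt3a, and replicate 2 lay among the upper values. The Tet2 means were 1057 ± 171 and 839 ± 243 (SD, n = 3), and its log2 fold change of −0.33 (SE 0.23, adjusted p 0.991; interval −0.79 to 0.13) was the largest of the 9. Tet3, the most abundant TET transcript per length, had 1380, 1209 and 1623 in control libraries against 830, 1724 and 1092 in p300-ifKO libraries. Its lowest and highest values of 6 were thus both p300-ifKO libraries, and the log2 fold change was −0.21 (SE 0.26, adjusted p 0.991; interval −0.72 to 0.30).

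The reader Mbd2 was the steadiest of the 9. It had 911, 904 and 952 normalized counts in control libraries against 1006, 863 and 898 in p300-ifKO libraries. The means of 922 ± 26.2 and 923 ± 74.6 (SD, n = 3) were nearly identical, and the interval of the log2 fold change, from −0.25 to 0.25 (adjusted p 0.9999), covers changes of either sign up to that size.

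The Gadd45 pair had higher means in p300-ifKO mice with groups that overlapped, and with the length offset Gadd45g was at −0.038. Gadd45b had 333, 247 and 315 normalized counts in control libraries against 378, 323 and 342 in p300-ifKO libraries. Only p300-ifKO replicate 2 stopped the groups from separating, since it lay just below control replicate 1. The log2 fold change was 0.22 (SE 0.18, adjusted p 0.991), with an interval from −0.13 to 0.57. Gadd45g had 348, 257 and 290 in control libraries against 425, 269 and 277 in p300-ifKO libraries. A single high library, p300-ifKO replicate 1, set its higher mean, and the log2 fold change was 0.11 (SE 0.23, adjusted p 0.991; interval −0.34 to 0.57). The immediate early genes, other transcripts that neuronal activity induces, had 3 of 7 higher and 4 of 7 lower and none called or at an unadjusted p under 0.05, from Fosb at −0.28 (SE 0.31) to Junb at 0.21 (SE 0.17) on the log2 scale.

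The depth sets how far these values can be read. Counting error alone gives a coefficient of variation of 2.71% at the depth of Dnmt1, and the control mice varied by 2.77%, while the p300-ifKO mice varied by 17.7%. Mbd2 was near its counting error as well, with 3.29% from counting and 2.84% and 8.09% in control and p300-ifKO mice. In Dnmt3a the figures were 2.13% from counting, 13.3% in control and 28.9% in p300-ifKO mice, and in Tet3 they were 2.74%, 14.8% and 37.8%. The spread of the long genes was thus well above counting error in both groups. Dnmt3b was the reverse, with 18.9% from counting and 17.1% and 2.86% in the groups.

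**Figure D2:**
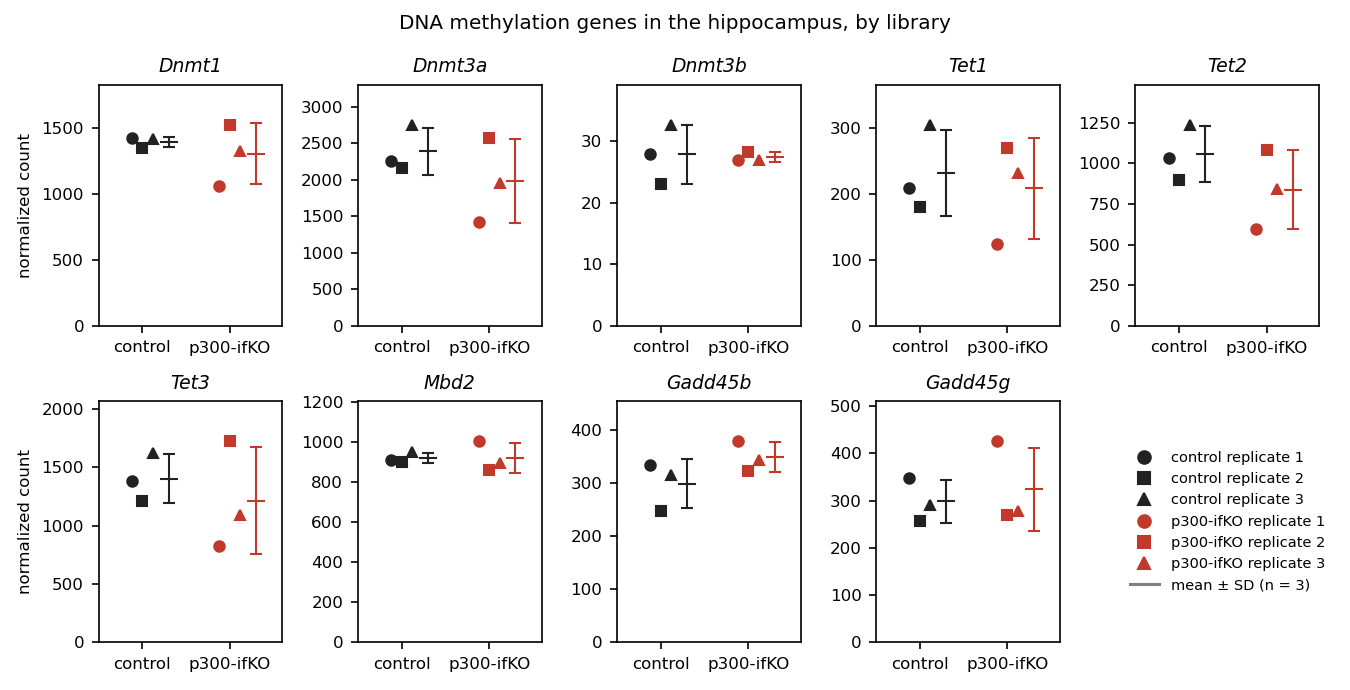
Normalized counts of the 9 genes, 1 panel per gene, each axis from 0; points are libraries (circle, square and triangle for replicates 1, 2 and 3) and bars are mean ± SD over 3 mice. The groups overlap in all 9 panels, and the red circle, p300-ifKO replicate 1, is the lowest point of Dnmt1, Dnmt3a, Tet1, Tet2 and Tet3 and the highest of Mbd2, Gadd45b and Gadd45g.

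Whether a library was high or low went with the length of the gene for the long genes in most libraries. Dnmt3a, Tet1, Tet2 and Tet3 have 15457 to 16870 exonic bases, Dnmt1 7377, Dnmt3b 5106, Mbd2 3214, Gadd45b 1589 and Gadd45g 1173. For each gene and library, the log2 ratio to the average of all 6 was therefore set against exonic length over the 17070 genes with a mean of at least 10 normalized counts. Spearman's rho across genes, which are not independent replicates, was 0.214, 0.194 and 0.434 in the control libraries and −0.494, 0.436 and −0.229 in the p300-ifKO libraries. In p300-ifKO replicate 1, the 4 long genes had a median log2 ratio of −0.67, and the 172 genes of 15 to 17 kb had −0.44. In p300-ifKO replicate 2 these medians were 0.26 and 0.14, and in control replicate 3 they were 0.36 and 0.27. In p300-ifKO replicate 3 they were −0.16 and −0.11, and in control replicate 1 they were 0.06 and 0.0016. Control replicate 2, with a rho above 0, had −0.097 and −0.0034. The 3 short genes, Mbd2, Gadd45b and Gadd45g, had a median of 0.23 in p300-ifKO replicate 1, where the 6254 genes of 1 to 3.5 kb had 0.25. In the other libraries they followed their band less closely: their median was 0.044 in control replicate 1 and −0.039 in p300-ifKO replicate 3, where the band had −0.052 and 0.025, and −0.27 in control replicate 2, where the band had −0.054.

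**Figure D3:**
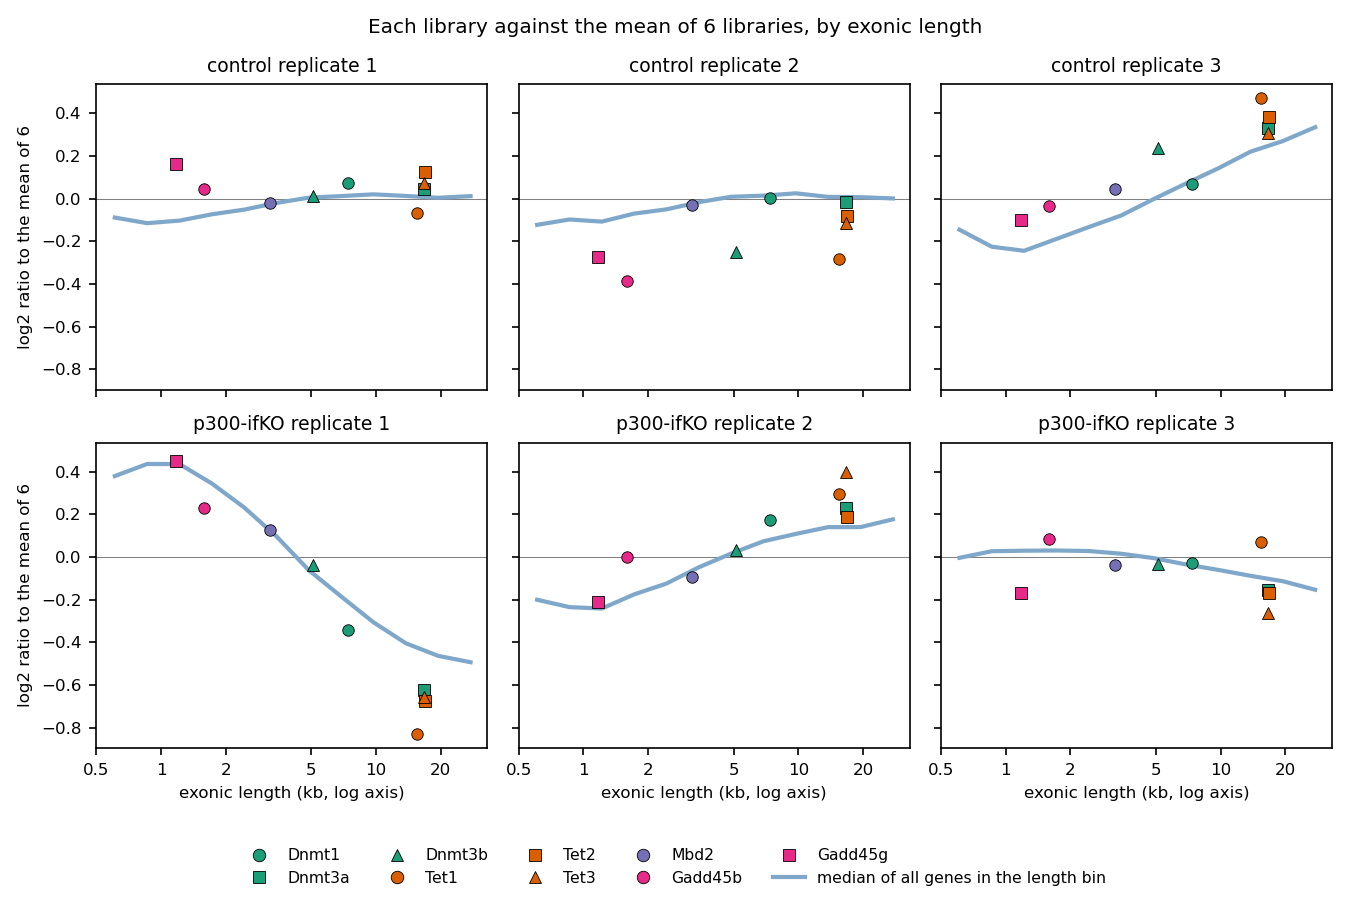
Log2 ratio of a library to the average of all 6 against exonic length in kb (log axis), 1 panel per library; symbols are the 9 genes and the line is the median of all genes in a length bin. The line falls with length in p300-ifKO replicate 1 and rises in p300-ifKO replicate 2 and control replicate 3, and the 4 long genes at the right lie on the same side of 0 as the line in these 3 panels.

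Group differences went with length too. Of the 172 genes of 15 to 17 kb, 96.5% had a log2 fold change below 0, with a median log2 fold change of −0.21 and 5% to 95% of them between −0.50 and −0.028. The fold changes of Dnmt3a (−0.27), Tet1 (−0.15), Tet2 (−0.33) and Tet3 (−0.21) all lay inside that range. Genes of 5 to 8 kb, the band of Dnmt1 and Dnmt3b, had a median of −0.065. Those of 1 to 3.5 kb, the band of the reader and the Gadd45 pair, had a median of 0.13, with 29.7% lower.

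With a smooth term for exonic length fitted to each library and used as an offset, the spread of the long genes narrowed. The highest library was 1.94-fold above the lowest for Dnmt3a without the offset and 1.18-fold with it. For Tet2 this went from 2.08-fold to 1.25-fold, for Tet3 from 2.08-fold to 1.36-fold, for Tet1 from 2.47-fold to 1.505-fold, and for Dnmt1 from 1.43-fold to 1.14-fold. Values of Dnmt3a were then 2209, 2143 and 2240 in control libraries against 1938, 2287 and 2095 in p300-ifKO libraries, still with replicates 1 and 3 of p300-ifKO at the low end. Its log2 fold change was −0.059 (SE 0.11), with a narrower interval, from −0.27 to 0.15. Tet2 had −0.12 (SE 0.13; interval −0.36 to 0.13), Tet3 −0.011 (SE 0.15), Tet1 0.048 (SE 0.22), Dnmt1 0.0069 (SE 0.11) and Gadd45b 0.10 (SE 0.16). All 9 had an adjusted p of 0.999 in DESeq2 there (0.0061% of genes were called), and their groups still overlapped. Ep300, with 14273 exonic bases, had −0.80 (SE 0.22, unadjusted p 0.000205, adjusted p 0.962 in DESeq2) with the offset, and its groups did not overlap.

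Whether Tet3 was called depended on 1 library. Without p300-ifKO replicate 2, Tet3 stood at −0.54 on the log2 scale (SE 0.18, DESeq2 adjusted p 0.0406), Tet2 −0.55 (adjusted p 0.0551) and Dnmt3a −0.50 (adjusted p 0.0546). In that fit 926 genes of 32019 were called (2.89%), all among the 17070 with a mean of at least 10 normalized counts. Tet3, Tet2 and Dnmt3a, 3 of the 9 genes, had an unadjusted p under 0.05 there, against 12.8% of all genes. Leaving out p300-ifKO replicate 1 instead moved the values towards 0, to 0.0028 for Tet3, −0.14 for Tet2 and −0.079 for Dnmt3a. With p300-ifKO replicate 2 left out and the length offset in place, a combination chosen after seeing the data, 349 genes were called (1.09%) and 0 of the 9, with 1 gene of the pathway described further on, Rbbp4 of the NuRD complex (0.41, DESeq2 adjusted p 0.0458), named after its values were seen. Tet3 then had −0.17 (adjusted p 0.419), Tet2 −0.18 (adjusted p 0.430) and Dnmt3a −0.13 (adjusted p 0.516), whereas Ep300 had −1.03 (adjusted p 3.11e-05). Dnmt3b had no adjusted p in either fit without p300-ifKO replicate 2, so it could not be called there.

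**Figure D4:**
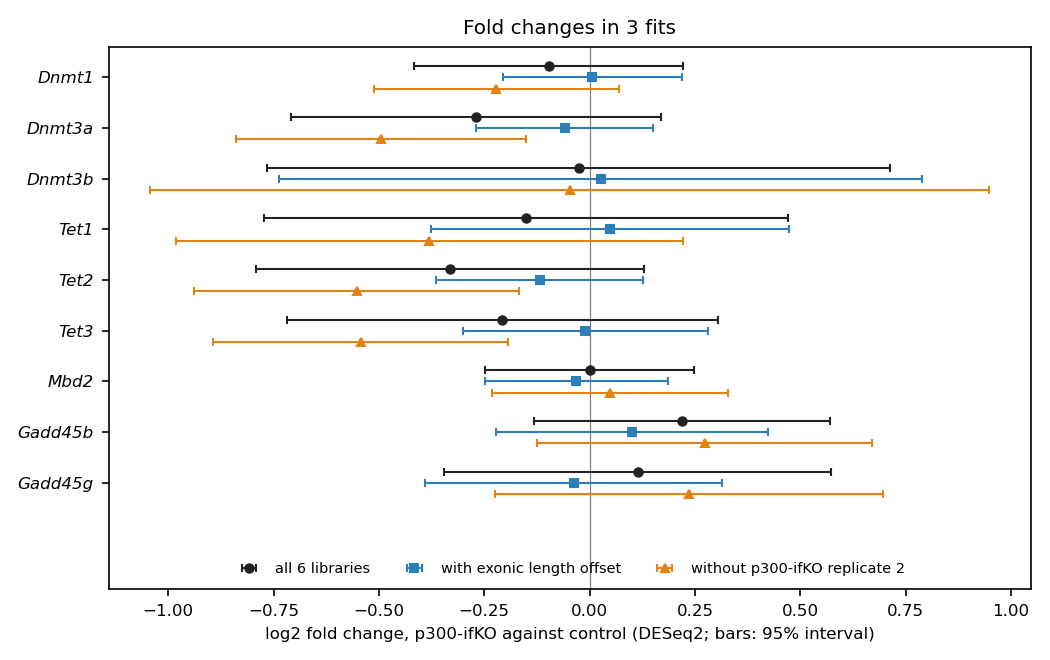
Log2 fold change of each gene, p300-ifKO against control, from DESeq2 with 95% intervals, in all 6 libraries (black), with the exonic length offset (blue) and without p300-ifKO replicate 2 (orange). All black and blue intervals include 0; the orange intervals of Dnmt3a, Tet2 and Tet3 do not, and of these only Tet3 has an adjusted p under 0.05 (0.0406).

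Shares within a family were computed next, since a share inside 1 library does not depend on its size factor. A share can still move with the trend on length where the genes differ in length. Dnmt1 and Dnmt3a do so, with 7377 and 16642 exonic bases. Per kilobase, Dnmt1 made up 57.7%, 57.7% and 52.7% of the DNA methyltransferase counts in control, against 61.4%, 56.4% and 59.3% in p300-ifKO libraries. By raw counts, not divided by length, the order was the reverse, with a control mean of 36.7% for Dnmt1 and 62.5% for Dnmt3a. The shares that follow are per kilobase. Dnmt3a made up 42.4% ± 2.76 in control and 39.2% ± 2.87 in p300-ifKO mice (SD, n = 3), and Dnmt3b 1.61% ± 0.169 and 1.83% ± 0.372. Among the TET genes, which are of similar length, Tet2 took 38.9%, 38.7% and 38.6% in control, against 37.9%, 34.6% and 38.3% in p300-ifKO libraries. Each p300-ifKO value was below each control value, with a difference of −1.79 percentage points between means, which gave p = 0.1 (exact two-sided permutation test), the smallest that 3 against 3 allows, and 0.6 after Benjamini-Hochberg adjustment over 7 shares. Most of that difference came from p300-ifKO replicate 2, without which it was −0.63 points. Tet3 took 52.1% ± 0.897 and 53.2% ± 2.87, and Tet1 9.17% ± 1.05 and 9.85% ± 1.48. Gadd45b made up 42.5% ± 1.80 of the Gadd45b and Gadd45g counts in control and 44.8% ± 4.48 in p300-ifKO mice. The exact p-values of these 6 shares were 0.3 to 0.6, each 0.6 after adjustment.

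**Figure D5:**
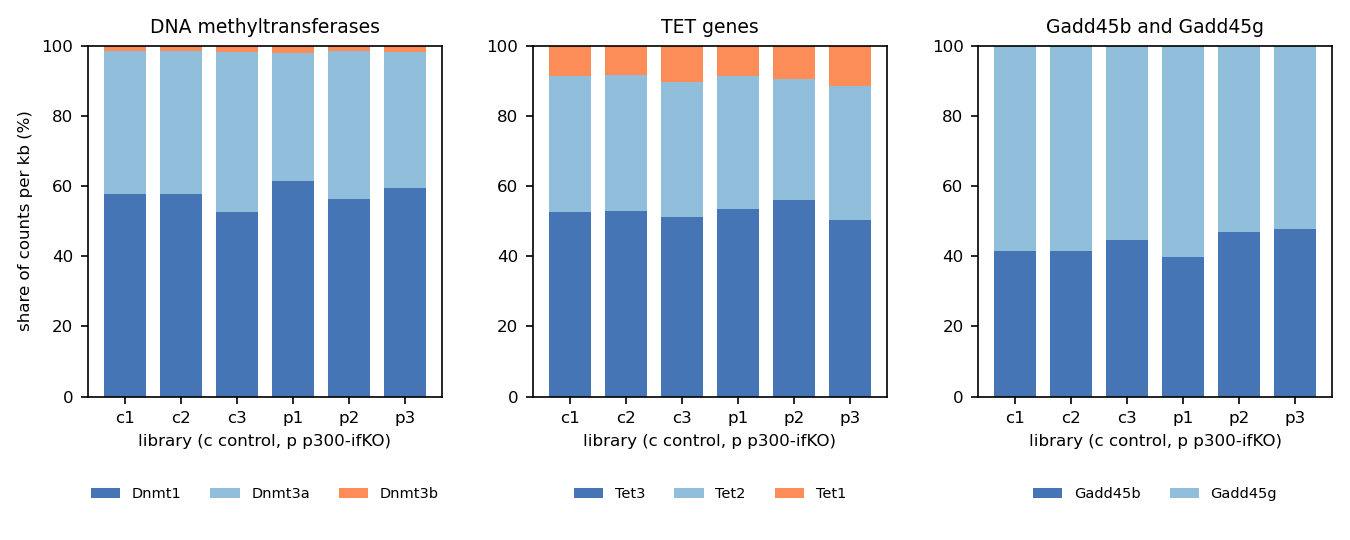
Share of each gene in the counts per kilobase of its family, in percent, stacked for each library (c1 to c3 control, p1 to p3 p300-ifKO). Dnmt1 and Tet3 take over 50% of their families in every library, Dnmt3b stays under 2.3%, and Tet2 is lower in p300-ifKO replicate 2 (34.6%) than in the other libraries (37.9% to 38.9%).

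The 9 genes varied together in part. Over the 6 libraries, Pearson's r of log2 normalized counts was 0.989 for Dnmt3a and Tet2, 0.972 for Dnmt3a and Tet3, 0.959 for Tet2 and Tet3 and 0.936 for Dnmt1 and Dnmt3a. With the length offset these values were 0.898, 0.864, 0.737 and 0.711. The Gadd45 pair had r = 0.715 without and 0.440 with the offset, and Dnmt1 and Mbd2 ran in opposite directions, with −0.834 and −0.882. All points share their 6 libraries and the trend with length, so these are descriptions of these libraries.

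Genes most like each of the 9 in their pattern over the 6 libraries were sought among 12252 others with a mean of at least 100 normalized counts. They were Tspoap1 for Dnmt1 (r = 0.999), Klhl24 for Dnmt3a (0.9995), Galnt13 for Tet1 (0.997), Hspg2 for Tet2 (0.998), Znfx1 for Tet3 (0.998), Igfbp4 for Mbd2 (0.989), Gadd45b with Ddc (0.987) and Gadd45g with Cops3 (0.9946). Mn1 was closest to Dnmt3b (0.988), among 12253 genes. Each r is the highest of all those compared, over 6 libraries and without the length offset, and does not show a link between the genes. An r above 0.95 was found with 1606 genes for Dnmt3a, 1099 for Tet2, 1097 for Dnmt1, 695 for Tet3 and 261 for Tet1. Mbd2 had 18 such genes, Gadd45b 12, Gadd45g 25 and Dnmt3b 8.

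The pathway around the 9 genes, 73 genes in 8 lists by role, had 0 genes called of 70 tested and 0 at an unadjusted p under 0.05 in DESeq2, with 31 higher and 39 lower by the sign of the fold change and a median log2 fold change of −0.015 (43 higher and 27 lower with the length offset). Limma-voom and edgeR also called 0. Groups were apart in 4 of the 65 genes with a mean of at least 10 normalized counts (6.15%, against 7.46% of all such genes). These were Trdmt1, lower, and Fbxl19, Apobec1 and Apobec3, higher, named after their values were seen. For each list, the lowest and the highest fold change among genes of that mean are given next.

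Around the writers, 12 methyltransferase partners were tested, 6 higher and 6 lower, from Hells at −0.22 (SE 0.26), a remodeller that opens chromatin to methylation, to Dnmt3l at 0.50 (SE 0.58), a catalytically inactive cofactor with 7.35 to 14.5 normalized counts. Uhrf1, which guides Dnmt1 to replicated DNA and was named after its values were seen, had 15.3 ± 1.44 in control and 16.99 ± 2.15 in p300-ifKO mice (SD, n = 3). The methyl donor cycle, which supplies the methyl group, had 2 genes higher and 7 lower (5 higher and 4 lower with the length offset), from Mtrr at −0.18 (SE 0.17) to Ahcy at 0.41 (SE 0.27).

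The list of other methyl-CpG readers and their relatives, such as Mbd3, Mbd5 and Mbd6, had 1 of 9 genes higher and 8 lower, with a median of −0.16. With the length offset, 4 had higher and 5 had lower means, and the median was −0.018. The lowest, Zbtb33, which encodes the reader Kaiso, had 681, 690 and 835 normalized counts in control libraries against 255, 859 and 600 in p300-ifKO libraries (log2 fold change −0.36, SE 0.35). Mbd3, a NuRD subunit related to Mbd2, was the highest at 0.34 (SE 0.22), with 2502, 2476 and 2188 in control libraries against 4081, 2260 and 2752 in p300-ifKO libraries. Without p300-ifKO replicate 2, Mbd3 had 0.52 (DESeq2 adjusted p 0.0440, past the threshold) and Zbtb33 −0.78 (adjusted p 0.0546). In that fit 2 of the 70 pathway genes were called (2.86%), against 2.89% of all genes. All 926 genes called were among the 17070 with a mean of at least 10 normalized counts, which 65 of the pathway genes had. Some pathway genes of lower count, such as Hells, Ahcy and Tdg, had no adjusted p in that fit and could not be called. The NuRD partners of Mbd2 and Mbd3 were 5 higher and 5 lower, from Gatad2b at −0.22 (SE 0.19) to Gatad2a at 0.13 (SE 0.12).

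On the side of removal, the TET partners had 2 of 5 tested genes higher and 3 lower, from Ogt, the O-GlcNAc transferase that binds TET proteins, at −0.26 (SE 0.20) to Idh2 at 0.13 (SE 0.16). Base excision repair had 9 of 14 higher and 5 lower, with a median of 0.12, from the ligase Lig3 at −0.31 (SE 0.26) to Apobec3 at 0.27 (SE 0.24). Tdg, the glycosylase that removes oxidized methylcytosine, was named after its values were seen and had 115 ± 6.08 in control and 113 ± 14.8 in p300-ifKO mice (SD, n = 3). Other Gadd45 genes and partners were 3 higher and 2 lower, from Ing1 at −0.14 (SE 0.16) to Gadd45gip1 at 0.45 (SE 0.24, unadjusted p 0.0590). Binders of unmethylated CpG through a CXXC domain were 3 higher and 3 lower, from Kdm2b, a histone demethylase, at −0.40 (SE 0.33) to Cxxc5 at 0.15 (SE 0.16). Kdm2b, the other of the 2 pathway genes called once p300-ifKO replicate 2 was left out, had −0.82 there (DESeq2 adjusted p 0.0306; 2.89% of all genes were called).

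On GRCm38 the 9 genes lie on 8 chromosomes: Dnmt1 at chr9:20907209-20959888 (minus strand), Dnmt3a at chr12:3806007-3914443 (plus), Dnmt3b at chr2:153649450-153687730 (plus), Tet1 at chr10:62804570-62908996 (minus), Tet2 at chr3:133463679-133545139 (minus), Tet3 at chr6:83362373-83459084 (minus), Mbd2 at chr18:70568189-70626131 (plus), Gadd45b at chr10:80930073-80932204 (plus) and Gadd45g at chr13:51846678-51848468 (plus). Values cover all exons of a gene, untranslated parts included, so isoforms were not told apart. The strand setting of the counting is not stated, and 0.799% of the exonic bases of Dnmt3a overlap its antisense transcript Dnmt3aos and 0.255% of those of Tet2 overlap Gm42567.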

How the data were processed

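RNA-seq libraries came from the hippocampus, 1 per mouse. The deposited table holds raw counts for each gene. For it, the authors took single-end reads of 50 bp, which were trimmed, aligned with STAR to GRCm38, filtered on mapping quality and counted on Ensembl exons with Rsubread. The submitters' processing notes name FastQC 0.11.8, Trim Galore 0.6.4, STAR 2.6.1 and DESeq2 1.30.1. Reads with several matching places fail that filter, so genes with near-identical copies are counted low. Library totals were 23151568 to 28433823, and intervals cover 95%. By identifier, 99.57% of the genes matched GENCODE M21.

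Groups and replicate numbers came from the sample titles. The test was the two-sided Wald test of DESeq2 (version 1.42.0, R 4.3.3) over all 6 libraries, with no covariate, default Cook and independent filtering and a threshold of 0.05. TPM was computed from counts and the exonic length in the table. Alternatives were edgeR quasi-likelihood (4.0.16), limma-voom (3.58.1), TMM factors, a minimum of 10 counts in 3 libraries, filtering off, a smooth length offset per library (mgcv 1.9.3), 1 surrogate variable (sva 3.50.0), the replicate number as a block, and each library left out in turn. After seeing the data, the length offset without p300-ifKO replicate 2 was added. Simulated data were used to test the fits. The members, lists and tests were chosen with earlier results of these data known. Named genes were the 9 members, Ep300, pathway and immediate early genes with p under 0.05, the lowest and highest fold change of each such list (mean count of at least 10) and the most similar gene for each member. Any other gene was named after its values were seen. Promoters are from RefSeq (GRCm38.p6), with 8 of 9 genes matched.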

Additional observations from a re-analysis of the deposited data

How the results depend on the processing

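None of the 9 genes was called in any of the 8 other fits of all 6 libraries. Without p300-ifKO replicate 2, 1 was called (Tet3), with 926 genes and 2 pathway genes (Mbd3 and Kdm2b); over the 6 fits that leave out a library the ranges were 0 to 1, 2 to 926 and 0 to 2. Gadd45b stayed higher and Tet2 lower in all 16 fits, neither past the threshold. The median over the 9 genes was −0.097, and 0.047 with 1 surrogate variable. Directions turned in several fits. Mbd2 was 0.0062 with edgeR, 0.0015 with limma-voom and 0.012 with TMM factors. With the length offset, Dnmt1 was 0.0069, Dnmt3b 0.027, Tet1 0.048 and Gadd45g −0.038, and without p300-ifKO replicate 2 as well, Dnmt3b was 0.038 and Gadd45g −0.030. With 1 surrogate variable, Dnmt1 was 0.059, Dnmt3a 0.013, Dnmt3b 0.047, Tet1 0.26, Tet3 0.11 and Gadd45g −0.14. Leaving out 1 library gave −0.22 to 0.029 for Dnmt1, −0.50 to −0.079 for Dnmt3a, −0.55 to −0.14 for Tet2, 0.10 to 0.31 for Gadd45b, −0.14 to 0.11 for Dnmt3b, −0.38 to 0.11 for Tet1, −0.54 to 0.0028 for Tet3, −0.068 to 0.049 for Mbd2, −0.13 to 0.24 for Gadd45g and −1.36 to −0.66 for Ep300. It gave −0.13 to 1.31 percentage points for the Tet1 share and −0.25 to 2.61 for the Tet3 share. The cause was not tested.

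Ep300 passed with 1 surrogate variable (−0.49, adjusted p 0.00205), without p300-ifKO replicate 2 (−1.36, adjusted p 0.000375) and with the length offset as well (−1.03, 349 genes called), all in DESeq2. Same-numbered libraries deviated together with r = 0.262, −0.263 and 0.171. These values are weak and mixed in sign, and do not settle whether the numbers pair the mice. Ep300 had −1.06 (SE 0.25, DESeq2 adjusted p 0.134) with the replicate number as a block. With the replicate block, 4 genes were called, 0 of the 9, of which 7 were lower (median −0.11). With 22 to 32 reads, Dnmt3b allowed no statement on changes smaller than its interval.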
